A study of Mus musculus with 156 samples.

Results

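Firre is a long noncoding RNA made from the X chromosome and retained in the nucleus. The experiment described here restored it in mouse embryonic stem cells that lack the gene, and the results below cover the last hours of a short time course, from 210 to 330 min after doxycycline. Doxycycline is the drug that switches on a transgene placed under a tetracycline-responsive promoter. Firre is known for binding the nuclear matrix protein hnRNP U and for marking focal sites on several chromosomes, and its loss and its expression from a transgene have both been studied for effects on genes elsewhere in the genome.

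Both lines were Firre KO. The KO transgene line carried an inducible Firre transgene, and the KO control is labelled with the deletion alone and described as genetically matched. Doxycycline was added to both lines, and the libraries of 0 min stand for the state before it. The promoter and the site of the transgene are not given in the sources used here. Cells grew in serum with LIF and the inhibitors PD0325901 and CHIR99021, which hold embryonic stem cells in a naive state. The comparison used 24 of the 156 libraries of the series, 20 of 210 to 330 min and 4 of 0 min. These were 2 replicates at each of 5 times in each line, so 10 late libraries per line, and 2 libraries per line at 0 min. The rescue response of a gene is its mean change from 0 min to the 5 late times in the KO transgene line minus the same change in the KO control. The 180 min libraries were left out by the rule of the comparison. Each genotype was represented by 1 control line and 1 transgene line, and the labels do not say how the lines were derived or whether they are clones. The nature of a replicate is not stated either, so p-values measure the spread between these libraries, which may be technical. A wild-type (WT) control and a WT line with the transgene, sampled at the same times, served for comparison.

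The genes that rose most included Shf and Duox1, which lie tail to tail on chromosome 2 with 919 bases between their ends (mm10, Duox1 at 122315672 to 122347972 on the plus strand and Shf at 122348892 to 122369162 on the minus strand). Apod and Ppp1r2 lie 20.9 kb apart on chromosome 16, and Nceh1 lies on chromosome 3. Duox1, Nceh1, Ppp1r2 and Apod are 4 of the 5 called genes whose time pattern was most like that of Shf. The 250 bases before the RefSeq start site of each (GRCm38.p6, the build also called mm10) are printed so that genes that move together can be compared. Capitals mark matches, on either strand, to the TATA box TATAAA, the CCAAT box, the GC box GGGCGG, the E-box CACGTG or the cAMP response element TGACGTCA, and neighbouring GC box matches may overlap.
Duox1, chr2:122315422-122315671, plus strand: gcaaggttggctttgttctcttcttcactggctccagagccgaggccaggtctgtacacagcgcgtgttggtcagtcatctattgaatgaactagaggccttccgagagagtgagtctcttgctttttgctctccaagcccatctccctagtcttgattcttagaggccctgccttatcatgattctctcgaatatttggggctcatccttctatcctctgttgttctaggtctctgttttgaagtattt
Shf, chr2:122369148-122369397, minus strand: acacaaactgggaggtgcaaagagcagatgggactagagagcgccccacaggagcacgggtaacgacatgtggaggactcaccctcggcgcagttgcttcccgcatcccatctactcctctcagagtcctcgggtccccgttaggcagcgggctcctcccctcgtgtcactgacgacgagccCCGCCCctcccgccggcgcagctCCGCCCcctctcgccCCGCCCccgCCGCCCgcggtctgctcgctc
Ppp1r2, chr16:31275278-31275527, minus strand: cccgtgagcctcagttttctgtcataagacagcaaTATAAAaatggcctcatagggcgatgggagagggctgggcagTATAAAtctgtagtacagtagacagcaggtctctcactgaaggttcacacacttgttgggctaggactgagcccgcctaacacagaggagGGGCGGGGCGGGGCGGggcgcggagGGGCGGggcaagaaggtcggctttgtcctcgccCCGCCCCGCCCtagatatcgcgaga
Apod, chr16:31314809-31315058, minus strand: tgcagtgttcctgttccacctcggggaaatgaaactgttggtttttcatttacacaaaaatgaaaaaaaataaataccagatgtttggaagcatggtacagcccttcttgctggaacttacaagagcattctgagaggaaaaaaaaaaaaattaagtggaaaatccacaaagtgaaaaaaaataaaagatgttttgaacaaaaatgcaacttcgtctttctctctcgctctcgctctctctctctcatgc
Nceh1, chr3:27182754-27183003, plus strand: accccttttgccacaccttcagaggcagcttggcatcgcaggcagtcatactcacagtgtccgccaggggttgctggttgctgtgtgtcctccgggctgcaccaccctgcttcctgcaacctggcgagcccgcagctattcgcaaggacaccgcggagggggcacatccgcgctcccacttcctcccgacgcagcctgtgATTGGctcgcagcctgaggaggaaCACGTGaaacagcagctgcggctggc
The windows differed in composition. G and C made up 36.4% of the Apod window and 47.6% of the Duox1 window, neither of which held a match to any of the 5 motifs. They made up 68.8% of the Shf window, 59.2% of the Ppp1r2 window and 64.0% of the Nceh1 window. Shf held 4 GC box matches and Ppp1r2 held 6 GC box and 2 TATAAA matches, while Nceh1 held 1 CCAAT and 1 E-box match. No motif was thus present in all 5 windows. Among the genes called higher, RefSeq gave a window for 34 of 46. Of these 61.8% held a GC box match, 17.6% (6 windows) an E-box match, 29.4% a CCAAT match, 11.8% a TATAAA match and 0% a TGACGTCA match. Among the genes called lower it gave a window for 39 of 51. Of these 69.2% held a GC box match, 10.3% (4 windows) an E-box match, 20.5% a CCAAT match, 5.13% a TATAAA match and 2.56% a TGACGTCA match. Each called gene with a window gave 1, whereas the tested genes gave every RefSeq window, 15950 for 12600 genes, so the units differ. Of the 15950 windows of tested genes, 53.6% held a GC box match, 7.86% an E-box match and 35.4% a CCAAT match. A TATAAA match was held by 7.20% and a TGACGTCA match by 2.34%. The shares are descriptions of these windows, and a match is not evidence of a bound site.

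Firre followed the labels in every library of the comparison. Its level is given in TPM, transcript abundance scaled by transcript length and by library. In the KO control it stood at 1.09 and 1.62 TPM at 0 min and at 0.279 to 1.45 TPM (median 0.981) over the 10 late libraries. In the KO transgene line it stood at 1.38 and 1.94 TPM at 0 min and at 171 to 291 TPM (median 220) late. The late levels of the lines did not overlap. The level was 465 ± 8.14 TPM at 120 min, its highest mean, and went from 289 ± 1.84 TPM at 210 min to 172 ± 1.15 TPM at 330 min (SD, n = 2). The WT control held 19.5 to 23.8 TPM (median 20.9) over the same times, so the induced level lay above the WT level in all 10 libraries. The rescue response of Firre was a log2 fold change of 7.41 ± 0.42 (SE, edgeR adjusted p = 9.49e-20). With 0, 30 and 60 min pooled as the baseline it was 2.51, since that baseline holds libraries in which the transgene was already on.

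The cells kept the markers of embryonic stem cells. Pou5f1, the core pluripotency factor, stood at 932 to 1094 TPM in the late KO transgene libraries and at 986 to 1161 TPM in the late KO control libraries. Late, Gata4, a primitive endoderm marker, stood at 1.08 to 1.85 TPM over both lines and Cdx2, a trophoblast marker, at 0.118 to 0.358 TPM. The fibroblast collagen gene Col1a1 stood at 0.197 to 0.675 TPM. These are single genes, and some other members of their lists were higher. The primitive endoderm list summed to 347 to 386 TPM in the late control and 353 to 393 TPM with the transgene. The trophoblast list summed to 63.2 to 69.5 and 59.4 to 69.2 TPM, and the fibroblast or feeder list to 251 to 303 and 227 to 286 TPM. Total counts of the 48 short-course libraries of the KO lines ranged from 23132991 to 35564248. In bulk RNA, a lower level can come from fewer cells of a type or from less RNA per cell, and these cannot be told apart.

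Some libraries stood apart. The second principal component of log2 CPM (read counts scaled to library size), which held 11.3% of the variance over 10712 genes, ran higher in late than in early libraries of the KO lines, with overlap. The KO control went from -4.9 to -2.0 at 0 to 150 min to 2.7 and 2.8 at 180 min and 1.3 to 4.9 at 210 to 330 min. In the KO transgene line the libraries of 0 to 150 min lay between -4.4 and 1.8, the highest of them above the lowest late control library, those of 180 min at -3.2 and -1.1 and replicate 1 of 210 min at -1.2, with the other 9 late libraries between 3.0 and 7.3. The 2 libraries of the KO transgene line at 0 min lay at 0.1 and -3.2. The part of these libraries in single genes was not tested, and counts with and without them follow. From 0 min to the late period the KO control itself changed at 743 genes (4.13%) and the KO transgene line at 828 (4.60%). Within a line, the effects of time, fresh medium and doxycycline cannot be told apart.

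In all, 97 of 18009 genes tested passed (0.539%), 46 higher (0.255%) and 51 lower (0.283%). A gene is called below when its edgeR quasi-likelihood p, adjusted by Benjamini-Hochberg for the whole set of tested genes, was under 0.05. At an unadjusted p under 0.05 there were 2425 genes. Firre apart, the largest rises on the log2 scale were those of Duox1 (3.21), Rapgef4 (2.31), Lrrn3 (2.24), Shf (2.00) and Adgrg1 (1.79). Those of Rapgef4 and Lrrn3 were less secure in this contrast (edgeR adjusted p = 0.0286 and 0.0499). Their means over the short course were 0.757 and 0.498 CPM. They passed under 11 and 10 of the 19 alternatives that gave them an adjusted p. Both passed in the WT background (3.52 ± 0.52 and 3.16 ± 0.59). From 90 to 150 min to the late period the response of Rapgef4 rose by 2.64 ± 0.33 (edgeR adjusted p = 1.46e-07), and that of Lrrn3 by 0.94 ± 0.37 (0.401). At 720 min of the long course Rapgef4 gave 3.05 ± 0.41 (edgeR adjusted p = 2.08e-07) and Lrrn3 0.38 ± 0.80 (0.977). Of the genes called higher, 10 reached a log2 response of 1 or more, and 25 stayed under 0.5. The falls were smaller, with 41 of 51 under 0.5 in size. The late CPM ranges of the lines did not overlap, in the direction of the call, for 33 of the 46 genes called higher and for 12 of the 51 called lower. Of all 18009 genes tested, called or not, 60 (0.333%) had separate late ranges with the transgene line higher and 64 (0.355%) with it lower. The count of calls depended on single libraries. Without replicate 1 of 210 min in the KO transgene line 66 genes were called (38 higher and 28 lower), and with the 180 min libraries 190 were (62 and 128). Without replicate 1 of the KO transgene line at 0 min 30 genes were called (26 and 4), and without replicate 1 of the KO control at 0 min 25 were (24 and 1). Replicate 2 of the KO control and of the transgene line at 0 min had the opposite effect, with 255 and 143 genes called without it. All 97 genes kept their sign under all 20 alternatives tried. The alternatives reuse libraries that gave the calls, so the kept sign is not independent evidence. Fst, Umps, Bbs4, Nceh1, Gjc1 and Ppp1r2 passed under every alternative that gave them an adjusted p, and no gene called lower did. Replicate 1 or 2 was also left out of every group, which leaves 1 library per line at 0 min. These fits pooled times into 1 coefficient per line and period, so they do not isolate the replicate. Firre missed the threshold in them, at responses of 7.29 and 7.52.

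**Figure D1:**
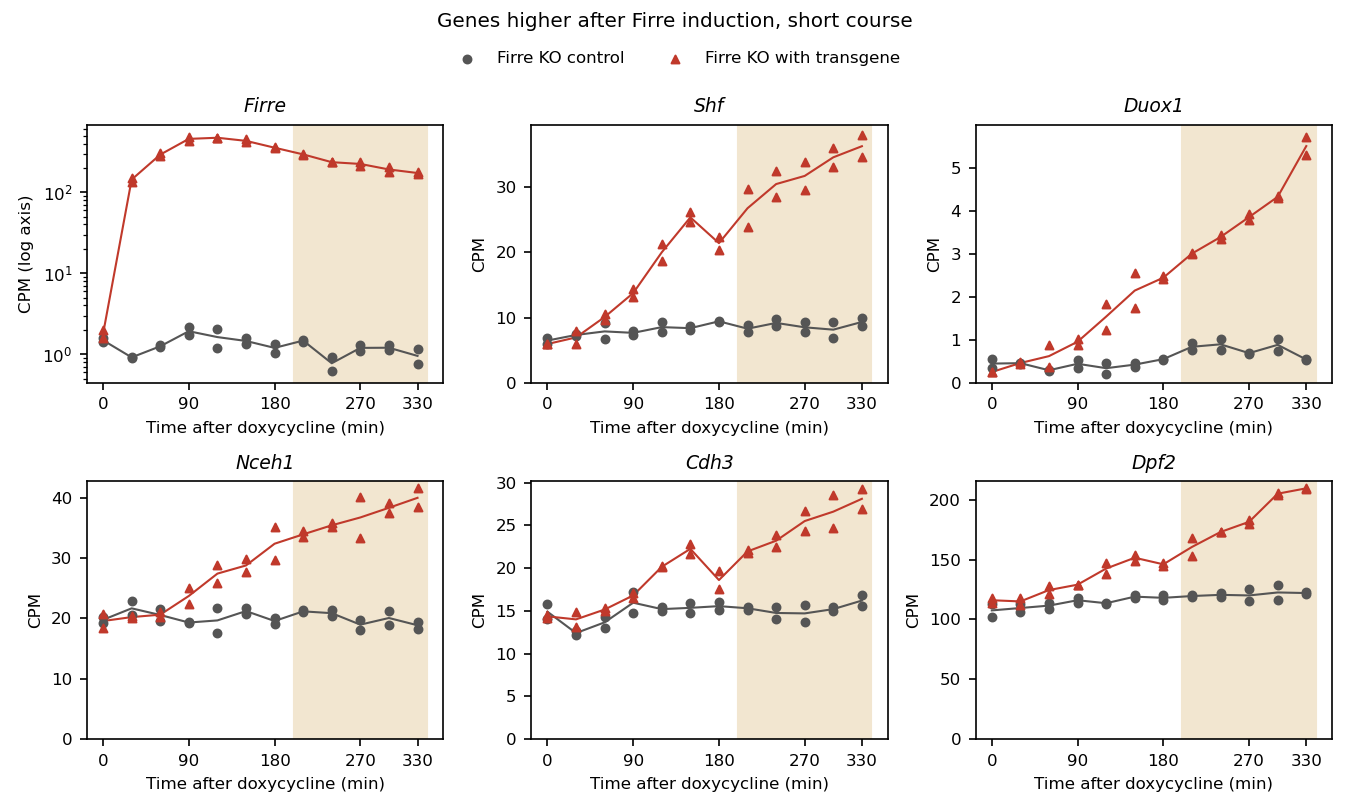
CPM (vertical axes, logarithmic for Firre) against minutes after doxycycline for 6 genes called higher, in the Firre KO control (grey circles) and the Firre KO line with the transgene (red triangles). Each point is 1 library, lines join the means of 2 replicates and the shaded band marks 210 to 330 min, where the late ranges of the lines do not overlap for any of the 6 genes.

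Shf encodes an SH2-domain adaptor protein of receptor signalling. It stood at 6.01 and 6.94 CPM in the KO control and at 5.98 and 5.91 CPM in the KO transgene line at 0 min. In the 10 late libraries it ranged from 6.94 to 10 CPM (median 8.74) in the KO control and from 23.8 to 37.9 CPM (median 32.8) in the KO transgene line. In the short course the lines were close at 0 min, on 2 libraries each. At 0 min of the long course the control was higher (16.9, 15.4 and 14.3 CPM against 13.1, 12.1 and 11.8 CPM). Late in the short course the lines did not overlap, the lowest transgene library being the 210 min library that stood apart. The rescue response was 2.00 ± 0.15 (log2, SE, edgeR adjusted p = 6.38e-16), in the same direction in 10 of 10 late transgene libraries, as for each of the 97 called genes. These 10 share the means at 0 min and, in pairs, a control mean, so they are not independent. Duox1 encodes an oxidase that makes hydrogen peroxide at the cell surface. It stood at 0.351 and 0.544 CPM in the KO control and at 0.248 and 0.255 CPM in the KO transgene line at 0 min. Late values ran from 0.521 to 1.03 CPM (median 0.746) in the control and from 3.00 to 5.72 CPM (median 3.86) with the transgene. All 10 transgene libraries lay above all 10 controls, although the line difference at 0 min was -0.85, and the response was 3.21 ± 0.46 (edgeR adjusted p = 3.33e-06). Per transcript length Duox1 remained a rare RNA, at 0.695 to 1.31 TPM late in the transgene line against 25.7 to 40.8 TPM for Shf.

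The genes named here and below include called genes outside the naming rule, among them Vegfc, Rapgef4, Umps, Impdh1, Slc29a3, Dpf2, Clock, Gjc1, Lefty2 and Mycn, which were chosen after their values were seen. Among called genes that act in receptor signalling, Adgrg1, an adhesion G-protein-coupled receptor, was at 1.48 and 1.5 CPM in the control and 2.05 and 1.49 CPM in the transgene line at 0 min. Late it was at 1.27 to 2.67 CPM (median 2.25) in the control and 5.16 to 13.5 CPM (median 9.27) with the transgene, with no overlap and a response of 1.79 ± 0.27 (edgeR adjusted p = 1.29e-05). Kdr, the main receptor for the growth factor VEGF-A, was at 0.849 to 1.05 CPM in the 4 libraries of 0 min. It reached 0.771 to 1.92 CPM (median 1.31) in the late control and 2.79 to 4.25 CPM (median 3.49) with the transgene, again without overlap, for a response of 1.37 ± 0.29 (edgeR adjusted p = 0.00692). Its call was lost without replicate 1 of either line at 0 min (edgeR adjusted p = 0.323 without that of the control and 0.209 without that of the transgene line). Vegfc, a ligand of the VEGF receptor family, rose by 0.41 ± 0.09 (edgeR adjusted p = 0.00851). Rapgef4, a cAMP-activated exchange factor for the GTPase Rap, rose by 2.31 ± 0.56, from 0.192 to 0.564 CPM in the late control to 0.833 to 3.56 CPM with the transgene. Fst encodes follistatin, a secreted antagonist of activin. It was at 9.52 to 10.5 CPM at 0 min in both lines, at 8.81 to 11.0 CPM (median 9.57) in the late control and at 14.7 to 19.9 CPM (median 16.3) with the transgene. The ranges did not overlap, and the response was 0.79 ± 0.10 (edgeR adjusted p = 2.33e-07). Gprc5a, an orphan receptor, rose by 0.50 ± 0.08 with late ranges of 27.6 to 32.5 and 39.3 to 50.6 CPM. Wls, the carrier that brings Wnt proteins to the cell surface, was called at 0.50 ± 0.10, but its late ranges overlapped (9.31 to 11.7 and 10.7 to 13.7 CPM). Its 0 min values were 12.8 and 13.2 CPM in the control and 9.80 and 10.4 CPM in the transgene line, and the line difference at 0 min was -0.37.

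Called genes of adhesion and matrix included Cdh3, Gjc1 and Lama1. Cdh3, the classical cadherin P-cadherin, was at 14 to 15.8 CPM at 0 min in both lines, at 13.7 to 16.8 CPM (median 15.4) in the late control and at 21.8 to 29.3 CPM (median 24.5) with the transgene. The late libraries were separate, and the response was 0.76 ± 0.10 (edgeR adjusted p = 8.15e-08). Gjc1, a connexin of gap junctions, went from 72.9 to 77.7 CPM at 0 min to 68.1 to 73.2 CPM in the late control and 83.2 to 90.3 CPM with the transgene, a response of 0.34 ± 0.05 (edgeR adjusted p = 2.73e-05). The laminin chain gene Lama1 rose by 0.32 ± 0.07, the membrane protease gene Adam9 by 0.30 ± 0.06 and the scaffold gene Dlg3 by 0.49 ± 0.09, each with separate late ranges. Spp1, which encodes the matrix protein osteopontin, was called at 0.40 ± 0.07, with late ranges of 747 to 834 and 820 to 940 CPM that overlapped. Its 0 min values were 836 and 797 CPM in the control and 669 and 706 CPM in the transgene line. The model gene Gm42793 lies inside Spp1 on the same strand and was called too (0.91 ± 0.21), so reads of the pair cannot be assigned with certainty.

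Called genes of nucleotide metabolism were Umps, Impdh1, Slc29a3 and Prpsap2, and those of lipid metabolism included Nceh1 and Apod. Umps, which makes uridine monophosphate, stood at 174 and 165 CPM in the control and 164 and 163 CPM in the transgene line at 0 min. It then ran from 161 to 178 CPM (median 167) in the late control and from 210 to 240 CPM (median 228) with the transgene, without overlap, for a response of 0.49 ± 0.05 (edgeR adjusted p = 2.20e-09). Impdh1, which catalyses the committed step of guanine nucleotide synthesis, rose by 0.51 ± 0.08 (edgeR adjusted p = 1.61e-05), with late ranges of 44.4 to 49.2 and 60.1 to 87.7 CPM. Slc29a3, a nucleoside transporter, rose by 0.55 ± 0.09 (edgeR adjusted p = 9.95e-05), with late ranges of 45.4 to 57.5 and 66.3 to 96.8 CPM. Prpsap2, a partner of the synthetase that makes phosphoribosyl pyrophosphate, passed at 0.25 ± 0.06 with overlapping late ranges. Nceh1, a hydrolase of cholesterol esters, was at 18.4 to 20.7 CPM at 0 min, at 18.1 to 21.3 CPM (median 20.1) in the late control and at 33.3 to 41.5 CPM (median 36.6) with the transgene. The ranges stood well apart, and the response was 0.89 ± 0.10 (edgeR adjusted p = 3.24e-09). The lipocalin gene Apod rose by 1.35 ± 0.28 (edgeR adjusted p = 0.00422) and Hacd3, of fatty acid elongation, by 0.33 ± 0.06.

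Among nuclear factors, Dpf2 had the smallest adjusted p of the genes named here. It encodes a subunit of the BAF chromatin remodelling complex. Its 0 min values were 102 and 113 CPM in the control and 118 and 114 CPM in the transgene line. Late it was at 115 to 129 CPM (median 121) in the control and at 153 to 210 CPM (median 182) with the transgene, without overlap, a response of 0.50 ± 0.06 (edgeR adjusted p = 7.55e-09). Clock, a transcription factor of the circadian clock, rose by 0.47 ± 0.08 and the zinc finger gene Zfp367 by 0.37 ± 0.07, the late ranges being separate for each. Ppp1r2, an inhibitor of protein phosphatase 1, rose by 0.41 ± 0.06, from 65.3 to 71.3 CPM in the late control to 83.9 to 94.4 CPM with the transgene. Genes of cilia and lipid-anchored cargo were called as well, with Bbs4, a subunit of the BBSome, at 0.57 ± 0.08 and Pde6d, a chaperone of prenylated proteins, at 0.61 ± 0.12. Fkbpl, an immunophilin-like gene, was called at 0.59 ± 0.12. Ect2, a gene of cell division that lies 29.1 kb from Nceh1, was called at 0.29 ± 0.06 with overlapping late ranges (214 to 252 and 234 to 271 CPM). For 11 of the 46 genes, among them Wls and the provisional genes Gm48529 and 4933434E20Rik, the difference between the lines was at least as large at 0 min as late.

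**Figure D2:**
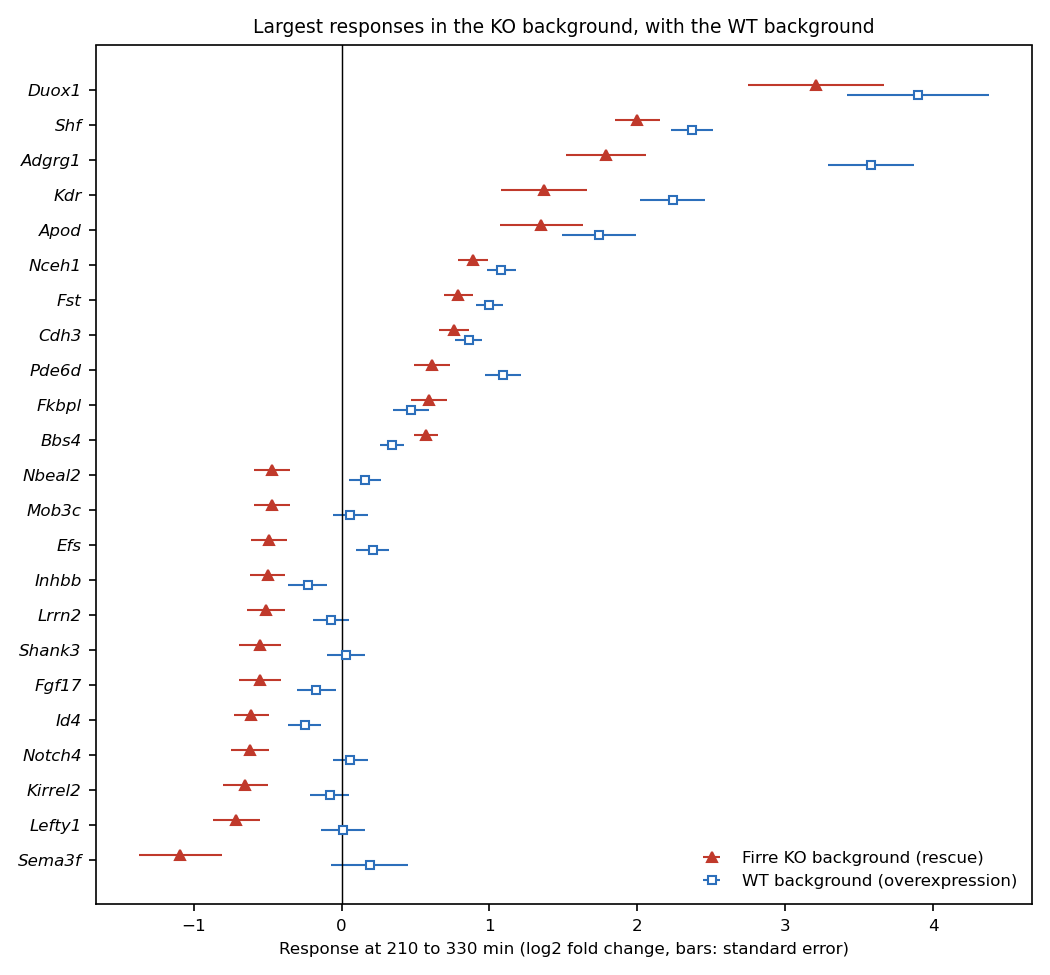
Rescue response in the Firre KO background (red triangles) and the response in the WT background (blue squares) at 210 to 330 min, in log2 fold change with standard error, for the 11 largest rises after Firre and the 12 largest falls by the naming rule. The rises are on the same side of 0 in both backgrounds, whereas most falls lie near 0 in the WT background.

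The genes called lower had a median size of 0.39, against 0.49 for those called higher, and for many the values of the lines lay apart at 0 min. Over the 51 genes the median line difference was 0.21 at 0 min and -0.16 at 210 to 330 min, comparisons that use the same libraries as the response. The median change from 0 min to late was 0.13 in the KO control and -0.20 in the KO transgene line. In 30 of the 51 the difference at 0 min was at least as large as the late one, and in 47 it was opposite in sign to the response. Notch4, a receptor gene, is an example. It stood at 10.7 and 13.7 CPM in the control and at 18.5 and 16.3 CPM in the transgene line at 0 min, and at 10.1 to 13.7 CPM (median 12.1) and 9.01 to 13.6 CPM (median 11.1) late. The late ranges overlapped, and the line difference was 0.51 at 0 min (edgeR adjusted p = 0.0413, where 0.161% of genes passed) and -0.12 ± 0.05 late, for a response of -0.62 ± 0.13 (edgeR adjusted p = 0.00502). For Ror2, a receptor for Wnt5a with a response of -0.43 ± 0.09, the line difference was 0.43 at 0 min (edgeR adjusted p = 0.00335) and -0.00 ± 0.04 late. Sema3f, a guidance factor gene, had the largest fall by the naming rule, -1.09 ± 0.28. It stood at 1.05 and 0.992 CPM in the control and 2.16 and 1.74 CPM in the transgene line at 0 min, with late medians of 2.03 and 1.68 CPM.

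**Figure D3:**
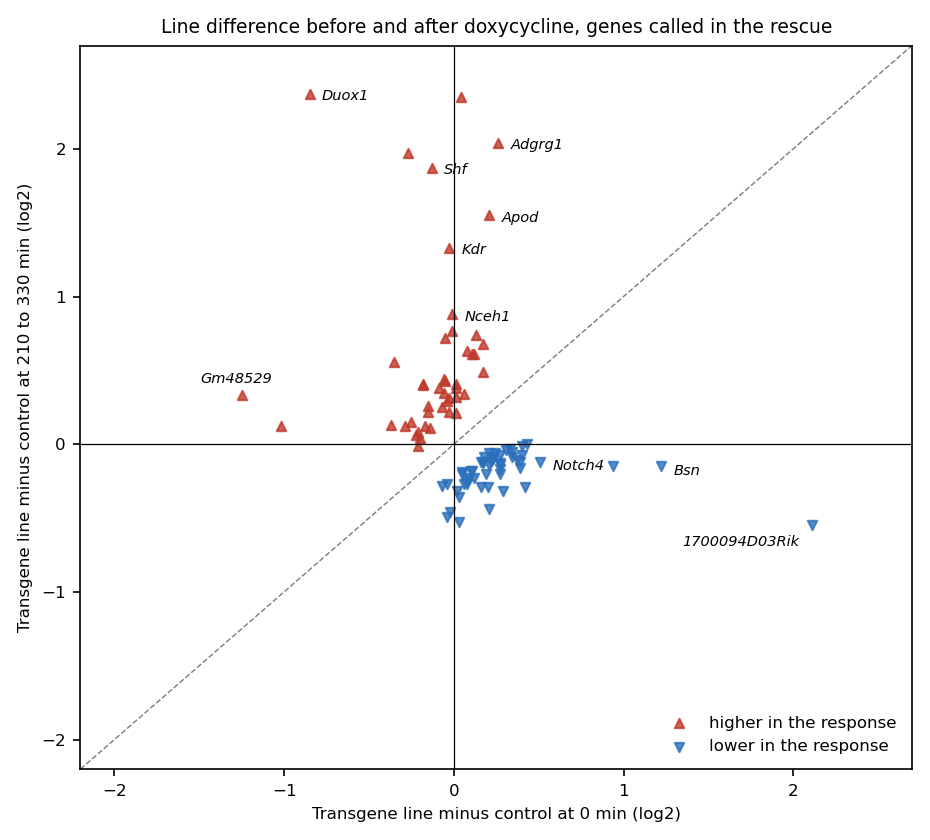
Difference between the KO transgene line and the KO control at 210 to 330 min (vertical axis, log2) against that at 0 min (horizontal axis, log2) for the called genes other than Firre. Red triangles mark genes called higher and blue triangles genes called lower, and the dashed line marks equal differences. Genes called lower cluster to the right of 0 and only slightly below it.

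Nanog, Sox2 and Prdm14 fell, each with separate late ranges. Nanog, a factor of naive pluripotency, stood at 965 and 1022 CPM in the control and 947 and 992 CPM in the transgene line at 0 min. Late values ran from 990 to 1084 CPM (median 1041) in the control and from 822 to 928 CPM (median 853) with the transgene. The lines did not overlap late, and the response was -0.24 ± 0.05 (edgeR adjusted p = 0.00857). Sox2, a partner of Pou5f1, was at 272 and 283 CPM and at 289 and 285 CPM at 0 min, and late at 255 to 273 CPM in the control and 228 to 245 CPM with the transgene. Its response was -0.24 ± 0.05 (edgeR adjusted p = 0.00835), and here too all transgene libraries were below all controls. Prdm14, a transcriptional regulator of the naive state, had lower values late than at 0 min in both lines. It went from 60.3 and 63.6 CPM to 49.2 to 57.5 CPM in the control and from 64.7 and 64.7 CPM to 37.9 to 48.6 CPM with the transgene, and the response was -0.33 ± 0.06 (edgeR adjusted p = 2.33e-04). Without replicate 1 of the KO control at 0 min none of the 3 passed (edgeR adjusted p = 0.456, 0.379 and 0.0531 for Nanog, Sox2 and Prdm14).

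**Figure D4:**
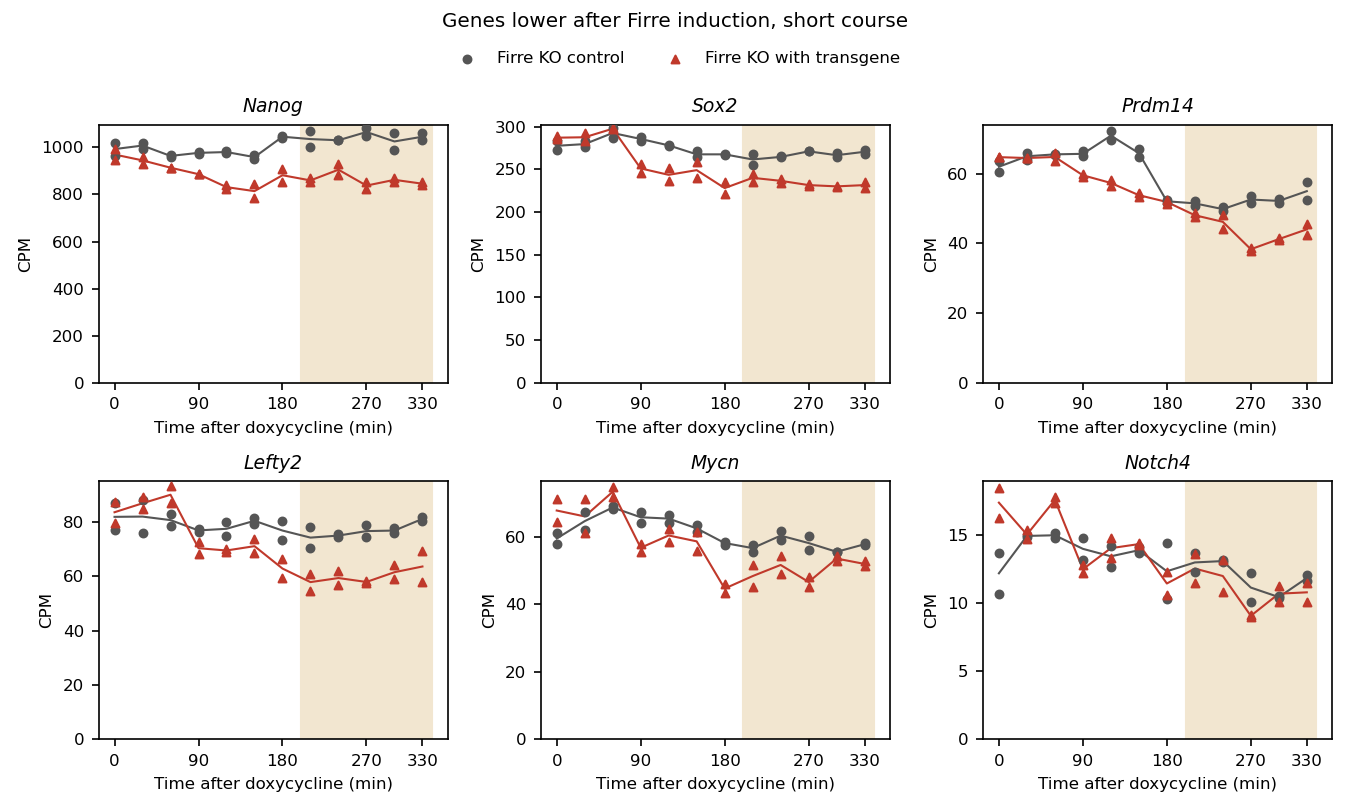
CPM (vertical axes, from 0) against minutes after doxycycline for 6 genes called lower, in the Firre KO control (grey circles) and the Firre KO line with the transgene (red triangles). Each point is 1 library, lines join the means of 2 replicates and the shaded band marks 210 to 330 min. For 5 genes the late transgene libraries lie below the controls, whereas Notch4 overlaps late and differs at 0 min.

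Lefty2, Lefty1 and Inhbb, called lower, act in Nodal and activin signalling. Lefty2, a secreted Nodal antagonist, was at 86.9 and 76.9 CPM and at 87.5 and 79.7 CPM at 0 min. It was at 70.3 to 81.8 CPM (median 76.9) late in the control and at 54.7 to 69.2 CPM (median 58.5) with the transgene, separate ranges, with a response of -0.39 ± 0.08 (edgeR adjusted p = 0.00281). The neighbouring Lefty1, 35.9 kb away, gave -0.71 ± 0.16 (edgeR adjusted p = 0.0157). Its transgene libraries stood at 4.76 and 6.40 CPM at 210 min and at 12.2 and 9.55 CPM at 330 min, and overlapped the control range of 8.54 to 11.0 CPM. Its call was lost without the 210 min libraries (edgeR adjusted p = 0.0598), without either KO control library of 0 min (0.165 and 0.0567) and without replicate 1 of the transgene line at 0 min (0.448). Inhbb, a subunit of activin B, was called at -0.50 ± 0.12 with the control at 8.27 and 8.06 CPM at 0 min and at a late median of 10.7 CPM. Other signalling genes called lower included the ligand Fgf17 at -0.55 ± 0.14, with late ranges of 8.13 to 9.64 and 4.78 to 8.02 CPM, and the neurotrophin receptor Ngfr at -0.44 ± 0.10, with 30.6 to 35.1 and 20.7 to 27.9 CPM. Dmtn, an actin-bundling protein gene that starts 154 bases beyond the end of Fgf17, fell by 0.34 on the log2 scale.

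Transcriptional regulators called lower included Mycn (-0.39 ± 0.07, late ranges of 55.5 to 61.7 and 45.1 to 54.2 CPM), Id4, an inhibitor of helix-loop-helix factors (-0.61 ± 0.12), the retinoic acid receptor gene Rarg (-0.34 ± 0.07) and the coactivator gene Cited2 (-0.35 ± 0.08). Of these, Mycn had separate late ranges. The corepressor gene Tle3, the repressors Cic and Zbtb7a and the factor genes Tead4 and Sox13 were called with overlapping late ranges and with line differences of 0.18 to 0.34 at 0 min. The membrane proteins Kirrel2 (-0.65 ± 0.15) and Islr2 (-0.44 ± 0.10) had separate late ranges, and the control values of Kirrel2 were 4.95 and 6.78 CPM at 0 min and a median of 8.33 CPM late. The remaining genes of the naming rule, Shank3, Lrrn2, Efs, Mob3c and Nbeal2, fell by 0.47 to 0.55 on the log2 scale, all with overlapping late ranges.

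The rises of Shf and Duox1 passed before the late period, and that of Dpf2 within it. At single times, which share the 0 min libraries, Shf first passed at 90 min (0.97, edgeR adjusted p = 0.0228), where 0.0111% of genes passed, and stood at 1.82 at 210 min and 2.09 at 330 min. Duox1 first passed at 120 min (2.97, edgeR adjusted p = 0.00585, 0.0222% of genes passing) and reached 4.18 at 330 min. Dpf2 stood at 0.24 at 150 min (edgeR adjusted p = 0.752), at 0.32 at 210 min (0.0456, with 0.167% of genes passing) and at 0.67 at 330 min (3.14e-09, with 0.144%). Between 90 and 150 min as a whole, 6 genes passed (0.0333%). The late response differed from that of 90 to 150 min for 47 genes (0.261%), 38 higher (0.211%) and 9 lower (0.05%), a comparison that does not use the 0 min libraries. Among them were Shf (0.65 ± 0.09, edgeR adjusted p = 5.71e-07), Nceh1 (0.48 ± 0.06, 7.43e-07), Impdh1 (0.40 ± 0.05, 1.46e-07), Dpf2 (0.34 ± 0.04, 2.51e-08), Umps (0.28 ± 0.04, 1.46e-07) and Gjc1 (0.28 ± 0.04, 1.46e-07). By the naming rule the largest were Kdr (1.07 ± 0.16), Ssh3, a phosphatase of cofilin (0.84 ± 0.20), and Adgrg1 (0.82 ± 0.17) among the higher, and the anion exchanger gene Slc4a3 (-0.66 ± 0.15), the synaptic scaffold gene Shank3 (-0.47 ± 0.09) and the matrix metalloprotease gene Mmp14 (-0.36 ± 0.09) among the lower. Without replicate 1 of 210 min in the KO transgene line 31 genes passed in this comparison. Nanog, Sox2 and Prdm14 showed no difference past the threshold between the periods (-0.07 ± 0.03, -0.03 ± 0.03 and -0.02 ± 0.04).

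The same contrast in the WT background, with other libraries throughout, called 45 genes (0.250%), 39 higher (0.217%) and 6 lower (0.0333%). Of the genes called higher in the KO background, 26 were called higher there too, 56.5% of the 46 and 66.7% of the 39. Shf rose by 2.37 ± 0.14 in the WT background against 2.00 ± 0.15 in the KO background, Duox1 by 3.90 ± 0.48 against 3.21 ± 0.46 and Nceh1 by 1.08 ± 0.10 against 0.89 ± 0.10. Nanog, Sox2 and Prdm14 were called lower in the WT background (-0.33 ± 0.05, -0.26 ± 0.05 and -0.42 ± 0.06) and were the only 3 of the 51 to be so, 5.88% of the 51 and 50% of the 6. The median WT response was 0.41 over the genes called higher and -0.05 over those called lower. The difference between the backgrounds was tested directly. It passed for 2 genes (0.0111%), among them Firre, and 2278 had an unadjusted p under 0.05. DESeq2, which gave an adjusted p for 4043 genes, called 99, of which 1 was among these 2. The difference was -0.37 ± 0.20 for Shf (edgeR adjusted p = 0.445), -0.69 ± 0.66 for Duox1 (0.730), -1.80 ± 0.38 for Adgrg1 (0.0858) and -0.72 ± 0.22 for Lefty1 (0.169), which missed the threshold and do not show that the backgrounds act alike.

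Late medians in the WT control were 7.23 CPM for Shf, 0.335 for Duox1, 18.9 for Nceh1, 1.31 for Adgrg1 and 111 for Dpf2. Those of the KO control were 8.74, 0.746, 20.1, 2.25 and 121 CPM. Those of the KO transgene line were 32.8, 3.86, 36.6, 9.27 and 182 CPM, above both. Late, the KO control differed from the WT control at 31.3% of genes and the KO transgene line at 35.1%. The KO control was higher than the WT control for Shf (0.26 ± 0.06, edgeR adjusted p = 2.93e-04), Duox1 (1.01 ± 0.16, 9.69e-07), Adgrg1 (0.67 ± 0.11, 1.06e-06) and Dpf2 (0.09 ± 0.02, 0.00198), and Nceh1 did not pass (0.09 ± 0.04, 0.0764). The KO transgene line was higher than the WT control for all 5, from 0.70 ± 0.02 for Dpf2 to 3.37 ± 0.13 for Duox1. For Nanog the late medians were 1025 CPM in the WT control, 1041 in the KO control and 853 in the KO transgene line, with differences from the WT control of 0.01 ± 0.02 (edgeR adjusted p = 0.836) and -0.26 ± 0.02 (5.56e-17). The KO and WT controls are single lines, so genotype and line cannot be told apart.

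**Figure D5:**
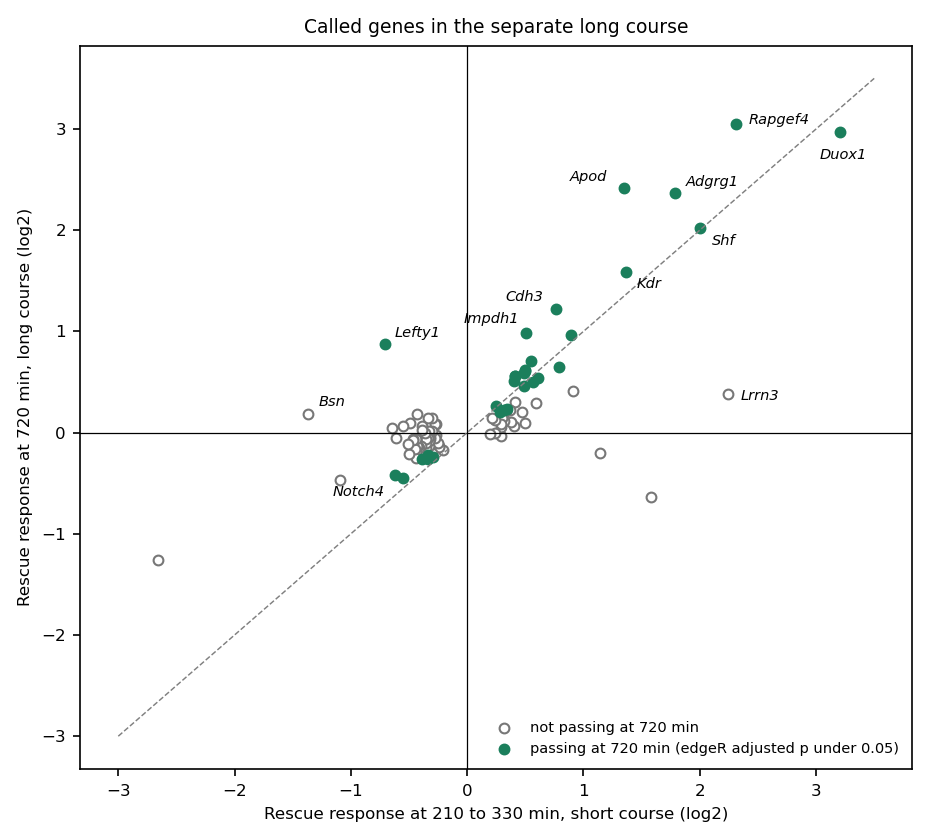
Rescue response at 720 min of the long course (vertical axis, log2) against that at 210 to 330 min of the short course (horizontal axis, log2) for the called genes other than Firre, with filled points passing at 720 min and the dashed line marking equal responses. Duox1, Shf, Rapgef4, Adgrg1, Apod and Kdr lie in the upper right, whereas Lrrn3 (2.24 and then 0.38), Gm48529 (1.58 and -0.64) and 4933434E20Rik (1.14 and -0.20) do not. Lefty1 lies below 0 in the short course and above it at 720 min.

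The long course, a separate set of libraries with 3 replicates per group, gave the state at 720 min. There 150 of 17565 genes passed (0.854%), 88 higher (0.501%) and 62 lower (0.353%). Of the 46 genes called higher at 210 to 330 min, 25 passed higher at 720 min, 54.3% of the 46 and 28.4% of the 88, with a median of 0.34. Shf was at 13.1, 12.1 and 11.8 CPM at 0 min and 48.5, 47.5 and 51.9 CPM at 720 min in the KO transgene line, against 16.9, 15.4 and 14.3 and then 15.5, 15.1 and 15.7 CPM in the control. The groups were separate, for a response of 2.02 ± 0.10 (edgeR adjusted p = 8.89e-25). Impdh1 went from 38.5, 39.8 and 39.2 to 82.3, 84.0 and 84.0 CPM with the transgene and from 42.3, 39.2 and 41.9 to 46.7, 43.5 and 43.0 CPM in the control. Its response of 0.98 ± 0.06 (edgeR adjusted p = 4.01e-21) was thus larger in size than that of 210 to 330 min, as were those of Cdh3 (1.22 ± 0.08) and Apod (2.42 ± 0.17), though the courses were not compared in a test. Clock and Lama1, called at 210 to 330 min, did not pass at 720 min (0.20 ± 0.06 and 0.11 ± 0.06). Of the 51 genes called lower, 6 passed lower at 720 min, 11.8% of the 51 and 9.68% of the 62. They were Mycn (-0.26 ± 0.06), Fgf17 (-0.45 ± 0.11), Notch4 (-0.42 ± 0.10), Rarg (-0.26 ± 0.07), Dmtn (-0.22 ± 0.05) and the corepressor gene Rcor2 (-0.24). Lefty1 passed in the opposite direction, at 0.88 ± 0.09 (edgeR adjusted p = 1.29e-10), from 25.1, 21.9 and 25.0 to 35.3, 33.2 and 33.5 CPM with the transgene and from 29.4, 28.6 and 29.1 to 23.2, 20.7 and 24.2 CPM in the control. Nanog, Sox2 and Prdm14 did not pass at 720 min (-0.13 ± 0.04, -0.14 ± 0.04 and -0.08 ± 0.07).

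Gene lists were read by counts and medians against all genes tested, whose median response was -0.01. Of 28 lists, 9 held a called gene, where 0.255% of all genes tested were called higher and 0.283% lower. In the naive pluripotency list 2 of 16 members were called lower (Prdm14 and Nanog), 14 of 16 had a negative sign and the median was -0.17. As a line difference at 210 to 330 min, 10 of the 16 passed lower, where 4.58% of all genes did, and at 0 min the list's median line difference was 0.03. Its summed level was 2242 to 2408 TPM at 0 min over both lines, 2264 to 2450 TPM in the late control and 1957 to 2211 TPM late with the transgene, so the late sums did not overlap. Klf4, Klf5 and Tbx3, other members, gave -0.26, -0.21 and -0.30 without passing. Separate late sums were not particular to the naive list. Formative or primed epiblast genes, 10 of 12 negative, summed to 406 to 435 TPM in the late control and 360 to 396 TPM with the transgene. Wnt targets summed to 139 to 154 and 118 to 133 TPM. In the general pluripotency list Sox2 was called of 12 members (median -0.08). Of 17 tested glycolysis and hypoxia genes, 3 were called lower, the growth factor gene Vegfa (-0.44 ± 0.11), the glucose transporter gene Slc2a1 (-0.30 ± 0.07) and the phosphofructokinase gene Pfkl (-0.28 ± 0.07), and the median was -0.14, against -0.02 in the WT background. For each of these 3 the late ranges overlapped. Their line differences, in the same order, were 0.27, 0.24 and 0.10 at 0 min and -0.17 ± 0.04, -0.06 ± 0.03 and -0.18 ± 0.03 late. The late difference passed for Vegfa and Pfkl (edgeR adjusted p = 0.00517 and 3.53e-06) but not for Slc2a1 (0.298).

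The list of long-course Firre responders was chosen on libraries of this series and is not independent evidence. Of its 22 members 7 were called higher (Shf, Nceh1, Cdh3, Duox1, Adgrg1, Apod and Rapgef4) and none lower. One more, Gfap, gave 2.25 ± 0.59 (edgeR adjusted p = 0.0530). The mesendoderm list held Kdr among 8 tested members (median -0.22), the primitive endoderm list Lama1 among 11 (median -0.07), the trophoblast list Tead4 among 13 (median -0.06) and the BMP target list Id4 among 10 (median -0.03). Kdr and Lama1 were the only called members of their lists, and Gata4 did not pass. The other 19 lists held no called gene and had medians of -0.16 to 0.26. The lowest were the integrated stress response and immediate early genes, both at -0.16. The highest were germline genes, at 0.26 with 11 of 12 positive, and genes of the 2-cell-like state, at 0.21 with 11 of 13 positive. In the germline list the median line difference was -0.15 at 0 min and 0.06 late. Partners of Firre in the nuclear matrix and chromatin (14 genes, median 0.08), its trans contacts (5 genes, median -0.00) and the genes next to the Firre locus (14 tested, median 0.10) held no called gene. The same was true of p53 targets (median -0.05), heat shock genes (0.04), cholesterol synthesis genes (-0.03), imprinted genes (-0.01), FGF/ERK targets (0.01), Wnt targets (-0.11), aryl hydrocarbon receptor targets (0.07), genes of mitochondrial protein quality control (0.03), fibroblast or feeder genes (-0.09), neuroectoderm genes (0.05) and formative or primed epiblast genes (-0.09). The 13 mitochondrially encoded genes were all positive without passing (median 0.14), and their line difference had a median of -0.11 at 0 min and 0.05 late.

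Several called genes were neighbours, and the loci described here are ones that hold a called neighbour. Around Shf, 15 other genes were tested within 500 kb, and Duox1 was the only one called, the others having log2 responses of -1.11 to 0.73. Sord, the tested gene on the other side of Duox1, gave 0.17 (edgeR adjusted p = 0.298). Around Ppp1r2, 2 of 11 other tested genes were called, Apod and Acap2 (0.32 ± 0.07), an ADP-ribosylation factor GTPase-activating protein gene 50.3 kb away. Around Bbs4, 1 of 12 was called, the ubiquitin ligase gene Arih1 (0.24 ± 0.06), and around Kdr 1 of 6, Clock, 231.4 kb away. Of all genes tested, 0.255% were called higher and 0.283% lower. Over all genes called higher, 145 tested genes lay within 100 kb, of which 11 were called higher and 1 lower (median response 0.02). Over all genes called lower, 283 tested genes lay within 100 kb, of which 6 were called lower and 1 higher (median -0.10). Neighbours that are both called appear in such counts from either side, and the library kit does not mark strand, so overlapping transcripts of neighbours cannot be separated.

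By the naming rule, the called genes whose pattern was most like that of Shf were Nceh1, Ppp1r2, Apod, Cdh3 and Duox1, each with a Pearson correlation of 0.96 over the 24 line and time groups of the KO lines. The groups share lines and libraries per time, and the genes were chosen among those called, so the value is a description. The levels of these genes differed widely per transcript length, with late medians in the KO transgene line of 33.6 TPM for Shf, 14.1 TPM for Nceh1, 6.88 TPM for Cdh3 and 0.875 TPM for Duox1.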

How the data were processed

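Poly(A) RNA was sequenced with a kit that does not mark strand. Per the submitters' processing notes, reads were quantified with Salmon 1.5.2 against mm10. The authors deposited estimated counts per gene and TPM values per gene, per the file headers, for 40914 genes in 156 libraries. The annotation release and any filter are not given in the sources used here. TPM values of the genes in the deposited table summed to 924452 to 947484 per library, and they were used as levels only.

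Counts were rounded and fitted with edgeR 4.0.16 (R 4.3.3), using TMM scaling, the default expression filter (minimum count 10, total 15) and the quasi-likelihood test. All 96 short-course libraries entered 1 model with a coefficient per line and time (48 residual degrees of freedom), and 18009 genes were tested. The long course was fitted apart. Benjamini-Hochberg adjusted p under 0.05 over all genes tested defined a call. CPM are TMM-scaled. Alternatives included DESeq2 1.42.0 and those described in the closing section. On simulated counts for 17713 genes, 77 of 100 genes changed by 0.5 (log2) and 98 of 100 changed by 1 were recovered for the rescue response, with 7 unchanged genes called. The changed genes were drawn above a floor of mean CPM that Duox1, Adgrg1, Rapgef4 and Lrrn3 do not reach. Apart from the change, each gene had a single mean in all libraries. The rates thus do not cover rarer genes or deviations of single libraries.

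Genes named are Firre, Shf and Duox1, the 12 largest called changes each way (non-provisional symbol, mean CPM 1 or more), the 3 largest each way in the difference between backgrounds and in late minus 90 to 150 min, up to 3 called genes of each of 28 lists, and the 5 called genes most like Shf. The members and lists were chosen with earlier results of these data known. Replicate numbers were shared between groups but deviations of same-numbered libraries did not correlate consistently, so no block was used. Promoter windows are from RefSeq (GRCm38.p6). A few named-rule results are not reported here.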

Additional observations from a re-analysis of the deposited data

Results flagged for a closer look

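Among the genes called in the rescue response, that of Firre differed between the KO and WT backgrounds by edgeR's test of the difference itself. The difference was 4.47 ± 0.38 (log2, SE, edgeR adjusted p = 5.76e-12), from responses of 7.41 ± 0.42 (KO) and 2.94 ± 0.12 (WT). The late WT control libraries held 19.5 to 23.8 TPM. In the WT transgene line Firre stood at 41.4 to 45.5 TPM at 0 min and at 283 to 614 TPM (median 423) late. The KO transgene line held 1.38 to 1.94 TPM at 0 min and 171 to 291 TPM (median 220) late. The larger response in the KO background thus starts from a lower level and does not mean a higher induced level. With 0, 30 and 60 min as the baseline the difference was 1.88. It missed the threshold with 1 coefficient per line and period (edgeR adjusted p = 0.0824). It also did so without replicate 1 or 2 (4.11 and 4.76), in fits that pooled times in the same way.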

How the results depend on the processing

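The 97 genes called in the rescue response kept their sign under each alternative tried, and so did the response of each gene named by the rule. Each alternative reuses libraries in which these genes were called, so a kept sign is not independent evidence. The rescue response called 97 genes, 190 with the 180 min libraries, 146 with DESeq2, 238 with 0, 30 and 60 min as the baseline, 360 without the filter on low counts, 48 when only the KO lines were fitted, 59 without 270 min and 151 without 300 min. Leaving out libraries by replicate gave 11 to 643. The alternatives with the added baseline, the 180 min libraries and single libraries left out were chosen after seeing the data. The WT response gave 45 genes, 164 with the pooled baseline, 147 without the filter and 20 to 324 with a replicate left out. The difference between backgrounds gave 2 genes, 99 with DESeq2, 4 with the pooled baseline, 247 without the filter, 1 with a coefficient per line and period, and 1 to 16 with a replicate left out. Late minus 90 to 150 min gave 47, 175 without the filter, 24 with the KO lines alone and 3 to 31 with replicates left out. The KO control change gave 743, 405 with the KO lines alone and 32 to 901 with replicates left out. The KO transgene line change gave 828, 545 and 239 to 831. The line difference at 0 min gave 29, 64 with DESeq2, 261 without the filter, 50 with a coefficient per line and period, 8 with the KO lines alone and 4 to 309 with replicates left out. The late line difference gave 1331, 840 without 270 min and 692 to 1163 with replicates left out. The response at 720 min gave 150 and 41 to 75 with a replicate left out. Where replicate 1 or 2 was left out of every short-course group, the model also changed to 1 coefficient per line and period. Those counts therefore do not isolate the replicate. The cause of these shifts was not tested.

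The replicate numbers did not pair the libraries consistently: over 1128 pairs of groups, the correlation of their replicate differences ran from -0.48 to 0.60 with a median of 0.06. Such a median does not show that no groups were paired or shared a batch, which was not tested. With the replicate block, 134 genes passed in the rescue response, 59 in the WT response, 2 in their difference, 59 in late minus 90 to 150 min, 979 and 995 in the KO control and transgene line changes, 82 and 1536 in the line differences at 0 min and late, and 174 at 720 min. With 2 libraries per line at 0 min, the baseline limits precision.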
